A study of Mus musculus with 4 samples.

Results

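The shores of CpG islands are the stretches of DNA that flank an island, and 46228 such 1 kb windows of the mouse genome are described here. A window counted as an unmethylated island window when it held 40 or more listed CpG positions and its mean level over the 4 libraries was under 20%. A shore window had fewer than 40 positions and lay 1 or 2 windows from an island window. It also needed at least 3 CpGs and 10 reads in every library, and runs of 5 or more adjacent windows under 15% were left out. Of 50126 candidate windows on the autosomes and X, 46228 (92.2%) had enough reads, 24307 of them at 1 window and 21921 at 2 windows from the island. They were drawn from 1729838 windows that met the same read minimum anywhere. Distances were counted from 12936 islands made of 17082 island windows, not all of which need have a shore window in the set. Islands were chosen by the mean level of the 4 libraries, which also removed the runs, so the low island level is a property of the choice. The difference between the groups was not used to choose windows.

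The libraries were whole-genome bisulfite sequences of genomic DNA from mouse embryonic stem cells, the pluripotent cells of the early embryo kept in culture. All 4 came from Ogt fl/fl cells, which carry floxed alleles of Ogt, the gene of O-GlcNAc transferase. The 2 Ogt iKO (inducible knockout) libraries came from cells given 4-OHT (4-hydroxytamoxifen, which switches on an inducible recombinase) for 6 days and then sorted for YFP. The 2 control libraries came from the same genotype kept without 4-OHT. Feeder fibroblasts were removed from both by cell sorting. Only the treated cells were selected for YFP, so loss of Ogt, exposure to 4-OHT and that sort cannot be told apart. The labels name no separate clones or derivations, so the spread between replicates may be technical. The study asked how loss of OGT changes DNA methylation, and the question here is how that comparison looked beside islands.

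A CpG island is a stretch of DNA rich in CG dinucleotides that is usually kept free of methylation, often at the start of a gene. Methylation climbs from the island into the surrounding DNA, and the shore is where this climb lies and where levels vary most between cell types. DNMT enzymes add methyl groups to cytosine, and TET enzymes oxidise them to 5-hydroxymethylcytosine and further forms that can be removed. OGT, which attaches the sugar N-acetylglucosamine to proteins, binds TET proteins. Bisulfite reads the methylated and the hydroxymethylated base alike, so the levels below are their sum, as the percentage of reads that kept a C.

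Sequences at 4 gene starts illustrate base content in an island and in shores. They were chosen after their values were seen, as examples of an island and of shores at 1 and 2 windows. Each is the 250 bases before a RefSeq start in GRCm38.p6 (mm10), outside every listed gene, in lower case with each CG in capitals.
Klf2: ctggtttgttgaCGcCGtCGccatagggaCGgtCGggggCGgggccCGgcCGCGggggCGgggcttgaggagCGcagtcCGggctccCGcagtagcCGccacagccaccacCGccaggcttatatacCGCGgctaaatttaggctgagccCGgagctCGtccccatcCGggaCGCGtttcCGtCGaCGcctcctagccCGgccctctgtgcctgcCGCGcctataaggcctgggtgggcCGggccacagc
Utf1: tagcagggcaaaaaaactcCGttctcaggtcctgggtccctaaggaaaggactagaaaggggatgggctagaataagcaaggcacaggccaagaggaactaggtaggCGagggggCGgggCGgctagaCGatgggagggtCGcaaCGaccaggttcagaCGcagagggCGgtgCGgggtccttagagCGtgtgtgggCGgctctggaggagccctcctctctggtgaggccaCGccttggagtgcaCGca
Rbp4: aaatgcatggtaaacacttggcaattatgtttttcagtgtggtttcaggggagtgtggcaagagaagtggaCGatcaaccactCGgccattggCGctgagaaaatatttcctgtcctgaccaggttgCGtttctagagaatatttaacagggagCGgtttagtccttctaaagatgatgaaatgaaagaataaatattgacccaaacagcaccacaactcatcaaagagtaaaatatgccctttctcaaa
Add3: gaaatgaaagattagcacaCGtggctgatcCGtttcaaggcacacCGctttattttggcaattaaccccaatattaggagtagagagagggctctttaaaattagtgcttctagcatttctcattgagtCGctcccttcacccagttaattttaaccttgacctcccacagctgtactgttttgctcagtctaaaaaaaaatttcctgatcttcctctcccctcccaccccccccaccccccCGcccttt
The Klf2 stretch (chr8:72318812-72319061, plus strand) lies in a 3-window island and holds 29 CGs at 71.2% G+C. Klf2 encodes a transcription factor of naive pluripotency, and the stretch read 2.22 and 0% in iKO and 0% in both controls. The Utf1 stretch (chr7:139943606-139943855, plus strand) lies 1 window from its island with 14 CGs at 61.6% G+C and read 0% in all 4 libraries. The whole 1 kb window around the start of Utf1, a chromatin protein of stem cells, read 9.73 and 7.20% in iKO against 27.1 and 24.2% in control (adjusted p = 0.0902, not called). The Rbp4 stretch (chr19:38125322-38125571, minus strand) is also 1 window out but holds 5 CGs at 40.8% G+C, and read 65.6 and 44.4% against 70.6 and 50.0%. The Add3 stretch (chr19:53140193-53140442, plus strand), 2 windows out, holds 5 CGs at 46% G+C and read 29.4 and 16.7% against 41.2 and 37.9%. Rbp4, nearer its island than Add3, thus had less G+C and more methylation, so the examples do not show the climb with distance. In these examples the CG-rich stretches had almost no methylation in either group, while the CG-poor ones carried intermediate levels, which overlapped between groups at Rbp4 and did not at Add3. Those 2 stretches had as few as 17 reads in a library. The whole 1 kb window read 43.4 and 24.7% against 66.7 and 62.2% at Rbp4 (adjusted p = 0.0945, not called). At Add3 it read 6.67 and 9.26% against 45.8 and 28.8% (adjusted p = 0.0752, not called). The drops in the windows of Utf1, Rbp4 and Add3 were wider than the mean over shores.

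The libraries held 64273609 to 79929994 reads over CpGs, 3.35 to 4.04 reads per listed CpG. The median shore window at 1 window from the island had 47 to 58 reads per library, so single windows are imprecise and means over many windows carry the comparisons. Reads carried no molecular identifiers. The starts of Pou5f1 and Nanog, genes that mark embryonic stem cells, read 0 to 12% in the 4 libraries. Comparisons of 2 against 2 libraries used a two-sided exact permutation test, whose smallest possible p is 0.33, so no such comparison could pass 0.05.

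Shore methylation was lower in both iKO libraries than in both controls at both distances. At 1 window from the island, the mean level was 31.9 and 30.9% in iKO against 37.3 and 39.4% in control. The difference, iKO minus control, was -6.97 points, against a pooled SD between replicates of 1.17 points (n = 2 and 2, exact p = 0.33). At 2 windows the levels were 58.4 and 56.7% against 65.3 and 68.9%, a difference of -9.58 points (SD 1.99, exact p = 0.33). At either distance every iKO library was below every control, and the difference exceeded the spread between replicates. Island windows themselves read 3.11 and 3.04% against 3.87 and 3.88%, a difference of -0.798 points.

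The difference was present across the genome outside islands too, so the shores were set against open sea, the 1512279 windows under 40 positions and more than 10 windows from any unmethylated island window. Open sea read 70.9 and 68.5% in iKO and 75.7 and 79.7% in control, a difference of -8.00 points (SD 2.36). Over both distances together, shores and open sea were not separated in points: the shore level minus the open-sea level differed between groups by -0.210 points (SD 0.814, exact p = 0.667), with overlapping libraries. This pooled value joined opposite parts. At 2 windows the shore level minus the open-sea level was -12.5 and -11.9 points in iKO and -10.3 and -10.8 points in control, a difference of -1.58 points (SD 0.40, exact p = 0.33) with the groups apart. At 1 window the difference was 1.02 points (SD 1.20, exact p = 0.667) with overlapping libraries. As a share of control, the levels were ordered by distance. The iKO level was 81.8% of control at 1 window, 85.7% at 2 windows, 86.8% at 3 windows, 87.7% at 10 windows and 89.7% in open sea. The 1-window shore reached 45.0 and 45.0% of the library's own open-sea level in iKO, against 49.3 and 49.4% in control, a difference of -4.34 percentage points (SD 0.0540, exact p = 0.33). The 2-window shore reached 82.4 and 82.7% against 86.4 and 86.4%, a difference of -3.82 (SD 0.140, exact p = 0.33). On this within-library scale replicates of a group nearly coincided while the groups stood apart. The step in level from 1 to 2 windows was also smaller in iKO, at 26.5 and 25.8 points against 28.0 and 29.5 points (difference -2.60, SD 0.820, exact p = 0.33).

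**Figure D1:**
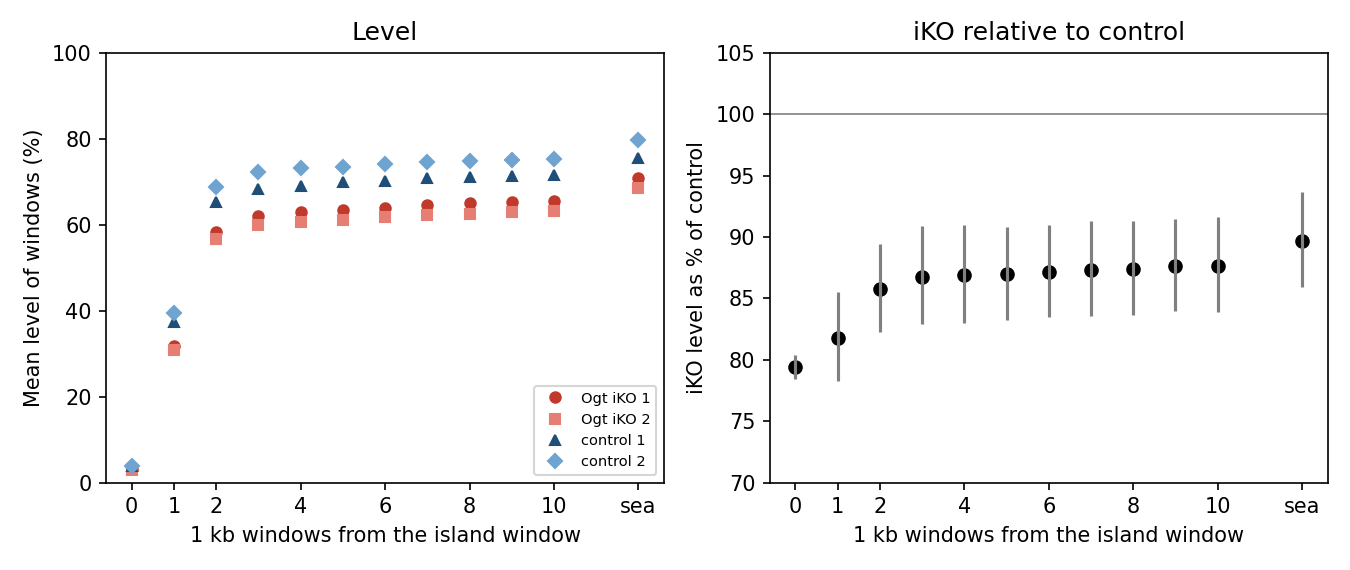
Mean methylation level of 1 kb windows (left, percent) in each library, and the iKO level as a percentage of control (right, axis not starting at 0), by the number of windows from the island window, with open sea at the end. Points at right are group means and grey lines the range over the 4 ratios of 1 iKO to 1 control library; the ratio was 81.8% at 1 window and 89.7% in open sea.

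Finer bins showed where the climb sat. In 100 bp bins from the edge of the nearest island window, both iKO libraries lay below both controls in 20 of 20 bins over the first 2000 bp, which held 689855 CpG positions. The difference was -2.33 points in the first bin and widest, at -9.96 points, between 1200 and 1300 bp. The midpoint distance is where a library's profile is midway between its first bin and its own plateau at 4000 to 5000 bp. It would stay in place if all levels of a library were scaled by the same factor. The iKO share of control was not even across levels, however. In windows outside shores, islands and runs it was 71.2% at levels under 20% and 93.2% at levels of 80% or more. Whether such unevenness by itself moves the midpoint was not tested. The midpoint lay at 583 and 577 bp in iKO and at 542 and 533 bp in control. The iKO midpoints were thus 42.5 bp farther from the island (SD 5.35 bp, exact p = 0.33), with no overlap between groups. Since islands are cut to whole windows here, the distances are from a window edge and not from the true end of an island.

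**Figure D2:**
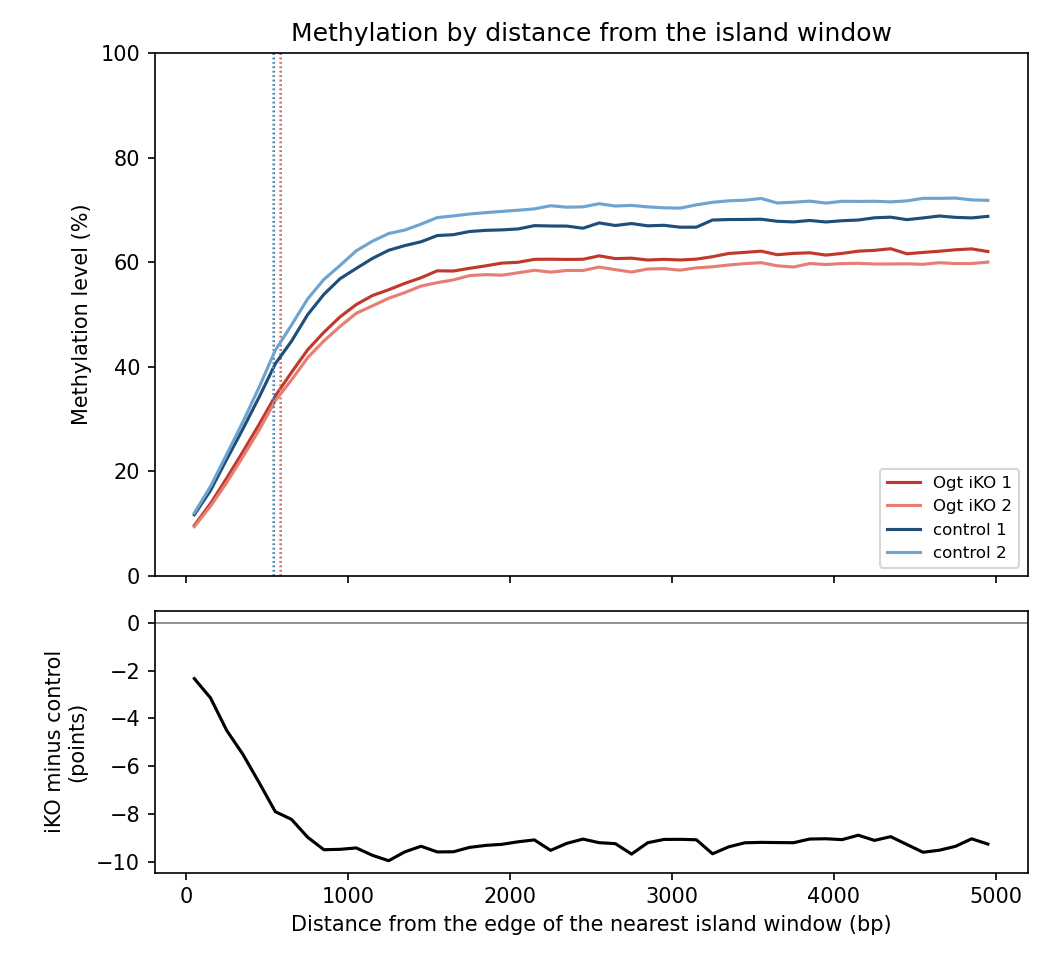
Methylation level in 100 bp bins (top, percent, 1 line per library) and the iKO minus control difference (bottom, percentage points) by distance in bp from the edge of the nearest island window. Dotted vertical lines mark each library's midpoint, at 583 and 577 bp for iKO and 542 and 533 bp for control; the difference levels off near -9 points beyond the first kilobase.

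The distribution of window levels lay lower in iKO throughout. At 1 window, 37.8 and 38.7% of shore windows were under 20% methylated in the iKO libraries, against 31.6 and 30.9% in the controls. Windows at 80% or more made up 1.67 and 1.19% against 4.57 and 7.65%. At 2 windows the share at 80% or more was 11.6 and 9.60% in iKO against 24.0 and 35.5% in control. Few 2-window shores were under 20% in any library, at 6.10 and 6.46% against 3.94 and 3.96%. Each of these shares stood apart between groups, although the controls were also far apart at 80% or more of 2-window shores; exact p was 0.33 for each. Shallow windows reach extreme levels by counting error alone, and the controls were the shallower libraries; the part of depth in these shares was not tested.

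**Figure D3:**
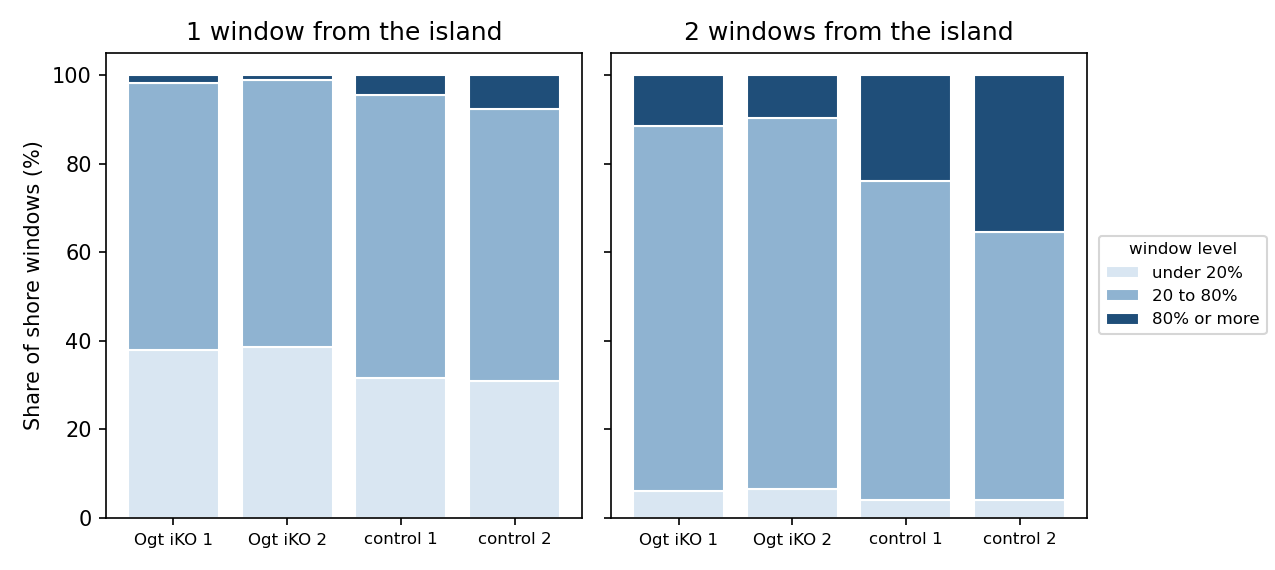
Share of shore windows (percent) with a level under 20%, 20 to 80% and 80% or more in each library, at 1 and 2 windows from the island. The dark segment, at 2 windows, is 11.6 and 9.60% for iKO and 24.0 and 35.5% for control.

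Shores were then sorted by their own level, averaged over the 4 libraries, beside other windows of the same level with under 40 positions and outside runs, so without island windows. In shores under 20% the iKO level was 77.4% of control, in those of 20 to 40% it was 77.2%, of 40 to 60% 80.2%, of 60 to 80% 86.7% and of 80% or more 92.3%. The difference in points was widest in the middle, at -11.2 points for shores of 40 to 60%. In those other windows it was 71.2, 73.7, 80.3, 88.5 and 93.2% in the 5 classes, so in both sets the ratio was nearest to 100% in the most methylated classes, while the lowest 2 classes stood in opposite order. Shores of 40 to 60% and other windows of that level overlapped between groups in their ratio (difference -0.0636 percentage points, SD 1.24, exact p = 1). In the lowest class, shores stood at 85.8 and 92.0% of the other windows in iKO and 82.3 and 80.9% in control. In the class of 60 to 80% the order was opposite, 95.0 and 95.7% against 97.5 and 97.3%. Within a class, shores thus read below the other windows in both of these cases, and the contrast between iKO and control took opposite signs in them.

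In every class by side of the start, gene content, CpG positions, chromosome and island length, both iKO libraries were below both controls. On the upstream side of a listed gene start, 1-window shores read 35.0 and 33.8% in iKO and 41.2 and 43.6% in control. On the gene-body side they read 27.7 and 26.7% against 32.7 and 34.5%. The body side thus held less methylation than the upstream side in every library, and its level as a percentage of the upstream level was 79.1 and 79.0% in iKO and 79.4 and 79.1% in control, a difference of -0.235 (SD 0.160, exact p = 0.33). Shores of islands with no listed start read 34.1 and 32.9% against 39.2 and 41.2%, which was 97.5 and 97.3% of the upstream side in iKO and 95.1 and 94.5% in control. Among these features, levels spread most by CpG content: 1-window shores with 3 to 9 positions read 46.5 and 45.0% against 53.8 and 57.3%, and those with 30 to 39 positions read 11 and 10.7% against 13.2 and 13.4%. The iKO level as a share of control was 82.4 and 82.0% in these 2 classes. At 2 windows the same share went from 86.4% with 3 to 9 positions to 81.3% with 30 to 39 positions. Shores between islands within 2 windows on both sides, 571 windows at 1 window, had 86.9% of the control level, and those with an island on 1 side had 81.7%. Windows mostly inside genes read 30.4 and 29.4% against 35.6 and 37.5%, and those mostly outside 35.2 and 34.0% against 40.9 and 43.6%. Beside islands of 1 window the difference was -6.71 points, of 2 windows -7.83 points and of 3 or more windows -6.46 points. At 2 windows from the island the body side read 56.4 and 55.2% against 64.5 and 67.7% and the upstream side 59.9 and 57.7% against 66.4 and 70.6%.

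All 19 autosomes had both iKO libraries below both controls at each distance. Their differences ranged from -7.45 to -6.09 points at 1 window and from -10.3 to -8.87 points at 2 windows. The X chromosome, with 458 shores at 1 window, read 23.8 and 23.4% against 29 and 30.1%, a difference of -5.91 points, and at 2 windows the difference was -9.53 points. The choice of threshold was not marked by a jump: shores of islands with 40 to 42 positions differed by -7.46 points, and windows beside stretches of 37 to 39 positions, just short of an island, by -7.57 points. Shores of islands at 15 to 20% differed by -8.64 points and windows beside stretches of 20 to 25% by -9.26 points.

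Single shore windows were tested with a quasi-binomial model of methylated and total reads, adjusted by Benjamini-Hochberg over all 1729838 windows and called at adjusted p under 0.05 with at least 10 points of difference. Of 46228 shores, 87 were called lower in iKO, 0.188%, beside 0.102% of all windows, and 0 were called higher, beside 0.000289% of all windows. At unadjusted p under 0.05 there were 8437 shores, 18.3% beside 13.5%. Both iKO libraries lay below both controls in 42.4% of shores, beside 40.6% of all windows, and above both in 4.91%, beside 4.2%. The shares by library order lay close to the background, while the shares called and at unadjusted p under 0.05 were above it. Windows 3 to 10 windows from an island had like shares, 0.139 to 0.218% called and 16.9 to 18.2% at unadjusted p under 0.05. Of other windows at the same level, 0.593% were called at 20 to 40% and 0.471% at 40 to 60%, against 0.375 and 0.320% of shores. The order was opposite at 60 to 80%, with 0.0701% of other windows against 0.0844% of shores, and at 80% or more, with 0.00666% against 0.0390%. Shores were also deeper, with a median of 40 to 49 reads per library against 27 to 34 over all windows, and the part of depth in these shares was not tested. Of the 87 calls, 45 were at 1 window and 42 at 2 windows, and they fell on 18 chromosomes and none on X. X held only 458 shores at 1 window and 291 at 2 windows. Its median at 1 window was 27 to 33 reads per library, against 48 to 59 on autosomes, so the lack of calls there is not read as a trait of X. Their differences ran from -49.98 to -17.7 points with a median of -33.8 points, from a median control level of 59.1% to 24.9% in iKO. The calls depend on the test and the design: edgeR's quasi-likelihood test called 1 shore, beside 0.00133% of all windows, and the model with a replicate block called 1, beside 0.00214%. With any 1 of the 4 libraries left out, no window of the whole genome was called, so that design does not bear on the shore calls in particular.

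The 10 called windows with the widest decrease lay mostly 2 windows from their island. They were ranked by points of decrease, and shores at 2 windows had a mean control level of 67.1%, against 38.3% at 1 window. The shares called were alike, 0.192% at 2 windows and 0.185% at 1 window. The window upstream of Rab6b, a GTPase of Golgi traffic (chr9:103109001-103110000), read 66.2 and 12.2% in iKO and 83.7 and 94.7% in control (adjusted p = 0.0492). The first iKO library was closer to the controls than to the second one there. The neighbouring windows toward and away from the island differed by -26.0 and -46.7 points. The window in Ppp4r1, a regulatory subunit of a protein phosphatase (chr17:65785001-65786000), read 39 and 16.7% against 75 and 80.5% (adjusted p = 0.0360). The window beside Pex16, needed to form peroxisomes (chr2:92373001-92374000), read 19.8 and 15.3% against 61.7 and 65.8% (adjusted p = 0.00736). It lies outside listed genes between 2 islands, and the windows on each side of it differed by -2.31 and -3.03 points. Those neighbours had control means of 10.4 and 19.8%, so a drop as wide in points was not possible there. The window upstream of Sp3, a transcription factor that binds GC-rich DNA (chr2:72982001-72983000), read 45.8 and 18% against 68.8 and 85.5% (adjusted p = 0.0416). The next window toward its island read 6.90 and 6.00% against 5.97 and 7.79%, too low in control for a wide drop in points.

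The window within Serinc3, the gene of a membrane protein (chr2:163642001-163643000), read 13.6 and 13.6% against 67.4 and 46.0% (adjusted p = 0.0338). Its island also holds a start of 0610039K10Rik. The windows on each side of it read 9.52 and 6.56% against 34.4 and 36.7%, and 28.6 and 17.3% against 73.5 and 53.8%. The window by Asb8 (chr15:98147001-98148000) read 46.7 and 25% against 79.3 and 88.6% (adjusted p = 0.0437). The 2 windows beyond it were also lower in both iKO libraries. So were 45.7% of all windows at 3 windows from an island and 45.0% at 4 windows. The remaining 4 lay by Gcnt2, a glycosyltransferase, in the stretch between Mirlet7a-1 and Gm25232, by Abhd2, a lipid hydrolase, and by Tmem238. Their differences were -48.8, -47.0, -45.0 and -44.3 points. Both iKO libraries were below both controls in each of the 10 windows, which the choice of named windows required. The neighbours of the Tmem238 window differed by -6.95 and -1.59 points, and those of the Gcnt2 window by -1.25 points toward the island and -29.7 points away from it. The Tmem238 neighbour at -1.59 points read 0 and 0% in iKO against 2.46 and 0.730% in control. The Gcnt2 neighbour toward the island read 1.96 and 0% against 1.75 and 2.70%. Both were too low in control for a wide drop in points. No edgeR adjusted p of these 10 windows was under 0.05, and the lowest was 0.116, at Pex16.

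Among shores that were higher in iKO, none was called, and the 3 with the smallest unadjusted p are given as values. This 0 depends on the setting, since 1 shore was called higher with autosomes only and 2 with windows moved by 500 bp, where 2381 and 2052 windows were called in either direction anywhere, against 1776 with the settings used here. The window upstream of Espn, an actin-bundling protein (chr4:152153001-152154000), read 58.1 and 56.8% in iKO and 27.9 and 13.5% in control (adjusted p = 0.0529, and 0.0446 with autosomes only). The window in Slc12a5, a chloride transporter of neurons, read 50.0 and 39.4% against 16.3 and 9.80% (adjusted p = 0.0938). The window in Zfp276 read 40 and 49.0% against 17.1 and 24.1% (adjusted p = 0.116). Both iKO libraries were above both controls in all 3, and each lay directly beside its island. With only CpGs read in all 4 libraries, their differences were 15.3 points at Espn, 17.2 points at Slc12a5 and 6.75 points at Zfp276.

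**Figure D4:**
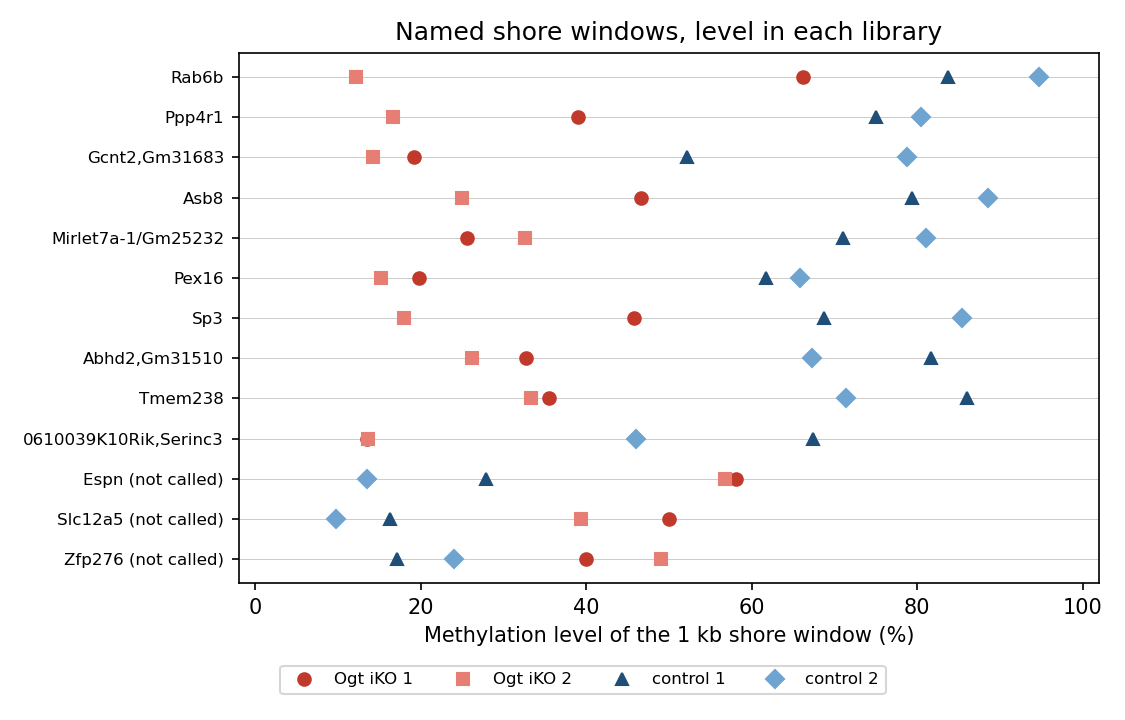
Methylation level (percent) of the 10 named shore windows called lower in iKO and the 3 highest-ranked windows that were higher but not called, with 1 marker per library. Red markers lie left of blue ones in the called windows, which the choice of these windows required. The iKO libraries of Rab6b are far apart, at 66.2 and 12.2%.

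Shores at the starts of genes of known roles were counted in lists. Across 7990 islands with a listed start, the median shore difference per island was -8.40 points, and both iKO libraries were below both controls in 67.4% and above both in 1.35%. The matching shares for single shore windows, to which the window counts below compare, are the 42.4% lower, 4.91% higher and 0.188% called given above. List medians of a few genes move with single libraries: the pluripotency median was -4.95 points without the second control, the O-GlcNAc median -10.5 points without the first control and the housekeeping median -4.34 points without the second control. Ogt itself, the gene the treatment targets, had 4 shore windows on X, which read 5.95 and 4.36% against 11.6 and 5.35% on average. None was called, and these windows do not test whether the floxed exons were lost.

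Of the pluripotency factors, 6 of 18 genes had shores, and 1 of their 23 windows was called lower and 0 higher. The called window lay 2 windows from the Klf2 island, on its body side but outside listed genes, between Klf2 and Eps15l1 (chr8:72322001-72323000). Its levels were 11.8 and 8.0% against 36.6 and 62.0% (adjusted p = 0.0308). All 4 Klf2 shore windows had both iKO libraries below both controls, and their mean was 13.0 and 6.44% against 24.6 and 42.2%. Klf2 was singled out after its values were seen, and its controls were far apart. The 4 genes of this list with the most reads in their shores were Lin28a, an RNA-binding repressor of let-7, and the transcription factors Esrrb, Tcf7l1 and Klf4. Their mean differences were -0.551, -6.28, -6.56 and -15.5 points, and the libraries of the groups overlapped in all but Tcf7l1. Klf4 read 43.6 and 31.5% against 43.2 and 62.7%, so its difference rests on the second control. The list's median was -9.94 points.

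Genes of the DNA methylation machinery had shores in 10 of 14 cases, with 42 windows of which none was called. Both iKO libraries lay below both controls in 16 windows and above in 2, and the median per gene was -6.25 points. Dnmt1, the maintenance methyltransferase, read 39.3 and 38.2% against 50.2 and 50.9%. Dnmt3a and Dnmt3b, which set new methylation, differed by -4.95 and -0.881 points, with overlapping libraries. Zfp57, a zinc finger protein that guards imprints, had all 4 windows lower and read 32.1 and 30.8% against 51.1 and 45.7%; it too was singled out after its values were seen. Trim28, its partner protein, read 11.6 and 4.58% against 9.87 and 11.3%, which overlap.

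The O-GlcNAc genes had shores in 7 of 9 cases, with 25 windows, 0 called, 11 lower and 1 higher in both iKO libraries, and a median of -6.10 points. Oga, the enzyme that removes the sugar, read 29.1 and 33.7% against 42.9 and 53.2% over 4 windows, each of them lower in both iKO libraries. Gfpt1, Gfpt2 and Uap1, of the hexosamine pathway that makes the sugar donor, differed by -13.3, -6.10 and -10.4 points. The island chromatin genes, which include the CXXC proteins that bind unmethylated CG and the Polycomb group, had 37 windows in 10 of 19 genes, of which 0 were called, 18 were lower and 4 higher. Among them Kdm2b differed by -14.8, Rnf2 by -8.17, Kmt2a by -4.55 and Bend3, whose libraries overlapped, by -1.76 points. Housekeeping genes had 31 windows in 9 of 16 genes, with 0 called, 11 lower and 3 higher; Rplp0, Tbp, Gapdh and Ppia differed by -8.54, -8.33, -3.54 and -5.82 points.

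The lineage factors, transcription factors and signals of early differentiation, had shores in 8 of 16 genes. Such genes are mostly silent in embryonic stem cells, but their expression was not measured here. None of their 27 windows was called, 4 were lower and 6 higher in both iKO libraries, and the median per gene was 1.41 points. That median changed sign with the libraries used, to -0.809 without the second iKO library and -1.38 without the second control. Pax6, which specifies eye and neural tissue, read 32.7 and 25.8% in iKO and 25.1 and 20.7% in control, with 3 of 5 windows higher in both iKO libraries. T, of the primitive streak, read 52.1 and 48.4% against 43.1 and 49.6%, and Fgf5, of the primed epiblast, 24.0 and 30.5% against 27.1 and 26.3%. The libraries of T and of Fgf5 overlapped between groups. Cdx2, of the trophoblast, was lower with 38.9 and 37.8% against 53.3 and 48.1%. Eomes and Sox1 were lower too, with differences of -9.70 and -6.33 points. By gene, 3 of 8 had both iKO libraries below both controls and 1, Pax6, had them above. The matching shares of islands with a listed start were 67.4 and 1.35%. With 8 genes, no difference of this list from the others was tested.

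**Figure D5:**
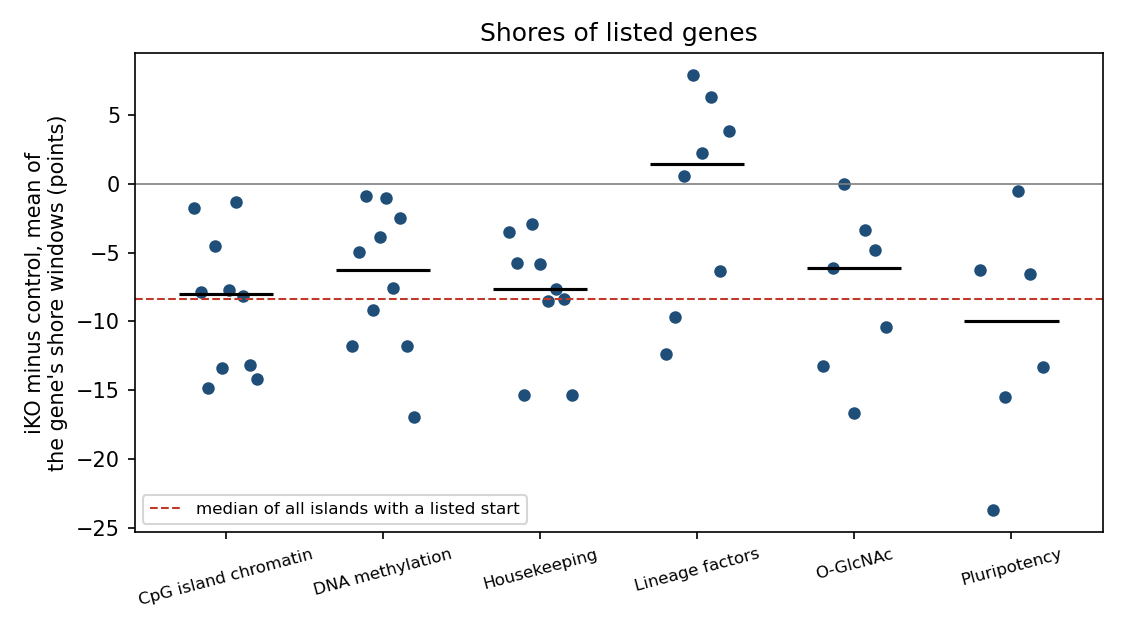
Difference iKO minus control (percentage points) of the mean shore level of each listed gene, 1 point per gene, with the median of each list as a black bar. The dashed line is the median of 7990 islands with a listed start, -8.40 points; the lineage factors' median is 1.41 points and the other 5 lists lie between -9.94 and -6.10 points.

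Stretches around gene starts carried little methylation in 1-window shores. In 2-window shores their levels were higher, and somewhat below those of gene starts in open sea. The 1401 1-window shores that hold a start read 18.5 and 17.8% against 21.5 and 22.8% as whole windows. RefSeq promoter entries run from 250 bases before to 50 after a start, and 963 of 32619 entries lay wholly in a 1-window shore and 211 in a 2-window shore. The 590 of them with enough reads at 1 window read 9.48 and 9.38% in iKO and 11.2 and 11.3% in control. At 2 windows, 77 entries read 38.9 and 37.3% against 43.0 and 44.5%, and 3482 open-sea entries read 42.9 and 40.3% against 47.4 and 50.1%. Entries inside islands, 6570 measured, read 0.965 and 0.924% against 1.08 and 1.05%. Both iKO libraries were below both controls in each of these places (exact p = 0.33 each). The median number of CGs in the 300 bases was 25 in islands, 9 in 1-window shores and 4 in 2-window shores, the last equal to open sea. The motif CGCG, a palindrome that reads the same on both strands and overlaps the CG count, was present in 85.8% of island entries, 34.5% of 1-window and 11.8% of 2-window shore entries, and 38.3% of all entries.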

How the data were processed

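Whole-genome bisulfite libraries of 2 Ogt iKO and 2 control samples were analysed. The authors aligned reads to mm10; BSMAP and Picard are named in the submitters' processing notes, with versions not given in the sources used here. The deposited tables give read counts for each CpG, methylated ones and their total, per the file headers. An expected count, the total corrected by the authors for C/T variants, served as an alternative. File names carry genotype and replicate number and were matched to samples by these.

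Reads were summed in 1 kb windows (3 CpGs and 10 reads per library), and group values are means over windows of each library. Library means were compared by a two-sided exact permutation test over 6 arrangements. Windows were tested with a quasi-binomial model, its dispersion moderated with limma 3.58.1 in R 4.3.3 and kept at 1 or more, with Benjamini-Hochberg adjustment over 1729838 windows. Alternatives were edgeR 4.0.16, limma on logit levels with 0.5 reads added, a replicate block, other thresholds, depths and grids, and leaving out each library. The model was tested on simulated data. The labels do not say whether equal replicate numbers mark pairs. Deviations of same-numbered libraries correlated at -0.00915 over shores. That value cannot decide it, since single windows hold few reads and a shift shared by all windows adds no correlation.

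Named windows were, of those called lower with groups apart, at least 8 CpGs and 20 reads per library and not on chromosome 18, the 10 with the widest decrease; where fewer than 3 were called higher, the 3 with the smallest p. Up to 4 genes per list were named by the most reads in the shallowest library. Members and lists were chosen with earlier results of these data known. Gene starts and promoter sequences are from RefSeq (GRCm38.p6). Intervals for counting error were not used; precision is given by the replicates. Windows that the rules left out appear here only as comparisons, as neighbours of named windows and in the changed settings.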

Additional observations from a re-analysis of the deposited data

How the results depend on the processing

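The 1-window difference ranged from -7.83 to -5.77 points over the changed thresholds, depths and grids and from -8.09 to -5.95 points with 1 library left out, and the 2-window difference from -9.70 to -9.48 and from -11.4 to -7.79 points. The step from 1 to 2 windows ranged from -3.79 to -1.72 and from -3.28 to -1.84 points. The midpoint shift ranged from 36.0 to 50.0 and from 35.9 to 46.3 bp, and the 1-window and 2-window shares of open sea from -4.68 to -3.42 and from -4.10 to -3.57, with alternatives for these shares chosen after seeing the data. Groups did not overlap in any of these 18 or 19 settings. Since 2 against 2 libraries cannot pass a threshold, the exact p says nothing about stability. The shore minus open-sea gap changed sign, to 0.121 with 50 positions per island, 0.429 with 5 CpGs and 20 reads and 0.949 with read-weighted levels, and ranged from -0.922 to 0.380 points with 1 library left out; the cause was not tested.

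The count of 87 called shores, beside 1776 windows called anywhere, fell to 0 with 5 CpGs and 20 reads (15 anywhere), with no minimum beyond 1 read (0 anywhere), with only CpGs read in all 4 libraries (4 anywhere) and with limma on logit levels (0 anywhere, 4387 shores at unadjusted p under 0.05). It fell to 1 with edgeR (23 anywhere, 6480 shores at unadjusted p under 0.05) and to 21 after thinning to the shallowest library (394 anywhere). Leaving out 1 library gave 0 among shores and 0 anywhere in each case. Calls thus fell among all windows and not among shores alone; the cause was not tested. The count rose to 123 with autosomes only (1 higher; 2381 anywhere) and to 117 with windows moved by 500 bp (2 higher; 2052 anywhere). With a replicate block, the count was 1. The 1-window and 2-window differences were unchanged as means, from pairs of -5.40 and -8.54 points and of -6.91 and -12.2 points. Whether the replicate numbers mark pairs is not known. Depth of 3.35 to 4.04 reads per CpG limits single windows. The 10 named windows called lower kept their direction in 19 settings, but each lost its call in 10 to 13 of them, with adjusted p up to 0.740, and the difference at Rab6b ranged from -77.0 to -23.0 points.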
